A study of Mus musculus with 20 samples.

Results

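The genes described here encode the chains of the collagen fibril in mouse heart muscle: Col1a1 and Col1a2 of type I collagen, Col3a1 of type III, Col5a1, Col5a2 and Col5a3 of type V, and Col12a1 and Col14a1 of the fibril-associated types XII and XIV. They were chosen by name, as a family, and number 8 of 48895 genes with exon counts. All 8 passed the filter on low counts, beside 18019 genes in all. RNA of hearts was sequenced after polyA selection. The groups were high-fat females (5 libraries), chow females (5), high-fat males (5) and chow males (4), all of them wild-type C57BL/6 mice of 12 weeks. The labels call the first diet PA, read here as the high-fat diet by elimination, since the series text names chow and a high-fat diet. The labels do not say that libraries came from separate animals, how long the diet lasted, at what hour hearts were taken or in which batch a library was made, so p-values measure the spread between these libraries, which may be technical. Chow male 4, whose deposited file gives counts per gene rather than per exonic piece, entered no comparison.

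Fibrillar collagens are made as procollagen chains that wind into a triple helix in the endoplasmic reticulum, are secreted, lose their end propeptides and line up into fibrils, which lysyl oxidases then cross-link. Types I and III make up most of the fibrillar collagen of the heart, and type V lies inside type I fibrils, where it helps to start them and limits their width. Types XII and XIV sit on the fibril surface. Cardiac fibroblasts are the main source of these chains, and their deposition is what fibrosis of the heart consists of.

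All 8 genes had the same coordinates in the files as in the GENCODE vM21 annotation of GRCm38. Col1a1 (ENSMUSG00000001506) lies at chr11:94936224-94953042 and Col1a2 (ENSMUSG00000029661) at chr6:4504814-4541544, both on the plus strand. Col3a1 (ENSMUSG00000026043) lies at chr1:45311538-45349706 on the plus strand and Col5a2 (ENSMUSG00000026042) at chr1:45374321-45503282 on the minus strand, so these are neighbours on chromosome 1. Col5a1 (ENSMUSG00000026837) is at chr2:27886425-28039514, plus strand. Col5a3 (ENSMUSG00000004098) at chr9:20770050-20815067 and Col12a1 (ENSMUSG00000032332) at chr9:79598991-79718831 share chromosome 9, both on the minus strand. Col14a1 (ENSMUSG00000022371) is at chr15:55307750-55520803, plus strand. Counts were summed over the exonic pieces of each gene. Every piece of Col3a1 also carried the ID of Gm47302, a gene annotated as a miRNA that lies within it. The 66 of 67 pieces that touch exons of Col3a1 alone were used, and the 1 that both genes cover was not.

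RefSeq's promoter table (GRCm38.p6) held 4 of the 8 genes, and the 250 bases before each transcription start are shown because 3 of these genes, Col1a2, Col3a1 and Col5a1, rose together in high-fat females while Col5a3 did not. They are read 5′ to 3′ on the gene's own strand, from chr6:4505368-4505617 (+) for Col1a2, chr1:45311288-45311537 (+) for Col3a1, chr2:27886175-27886424 (+) for Col5a1 and chr9:20815068-20815317 (−) for Col5a3. Capitals mark matches on either strand to CCAAT (the CCAAT box), TATAAA (the TATA box) or GGGCGG (the GC box), none of which overlapped another.
Col1a2: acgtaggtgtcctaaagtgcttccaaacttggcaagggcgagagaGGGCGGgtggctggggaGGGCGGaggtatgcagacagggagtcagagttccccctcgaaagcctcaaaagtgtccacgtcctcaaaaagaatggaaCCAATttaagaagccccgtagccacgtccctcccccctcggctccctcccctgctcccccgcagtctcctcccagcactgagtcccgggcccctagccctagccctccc
Col3a1: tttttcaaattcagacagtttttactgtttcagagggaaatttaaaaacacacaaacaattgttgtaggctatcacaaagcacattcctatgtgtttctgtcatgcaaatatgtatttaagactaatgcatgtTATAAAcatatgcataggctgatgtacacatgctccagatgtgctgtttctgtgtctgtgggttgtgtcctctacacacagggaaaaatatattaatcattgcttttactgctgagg
Col5a1: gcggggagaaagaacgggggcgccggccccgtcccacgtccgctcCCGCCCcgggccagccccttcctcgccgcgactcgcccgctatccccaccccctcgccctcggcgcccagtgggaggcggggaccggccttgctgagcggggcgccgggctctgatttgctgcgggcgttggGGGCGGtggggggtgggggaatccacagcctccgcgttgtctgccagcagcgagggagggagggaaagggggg
Col5a3: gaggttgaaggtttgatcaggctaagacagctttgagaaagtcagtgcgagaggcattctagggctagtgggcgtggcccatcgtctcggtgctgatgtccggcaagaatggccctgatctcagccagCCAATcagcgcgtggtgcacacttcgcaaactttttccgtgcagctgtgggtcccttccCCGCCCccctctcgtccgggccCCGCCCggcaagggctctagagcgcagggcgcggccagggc
The promoter of Col1a2 held 1 CCAAT match and 2 GC-box matches, and that of Col5a3 also held 1 CCAAT match and 2 GC-box matches. The promoter of Col5a1 held 2 GC-box matches, and that of Col3a1 held 1 TATAAA match, at position -117 from the transcription start. None of the 3 motifs searched was found in all 3 of the genes shown that rose together. Col1a1, which also rose, had no promoter entry, and a shared element was not tested. Of 32851 promoters of the same length, 33.85% held CCAAT, 12.37% TATAAA and 32.74% the GC box. GC content was 35.2% in the Col3a1 window, against 62% for Col1a2, 62.8% for Col5a3 and 76.4% for Col5a1. RefSeq's start for Col1a2 lies inside the span that GENCODE gives the gene.

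Library totals ran from 57805110 to 85794067 counts, where a read that spans several exonic pieces counts in each. High-fat females 4 and 5 stood apart from the other 17 libraries. On the first principal component, with 44.4% of the variance, they lay at 99.5 and 139 and the others between -21.7 and -2.41. Their counts also rose with the GC content of genes, by 0.60 and 0.88 log2 units for each 10 points of GC, against slopes of -0.09 to 0.12 elsewhere. The nuclear RNA Malat1 spanned 63.91 to 1397 CPM (counts per 1000000 counts of a library) in high-fat females and 1179 to 1533 in chow females. Neat1, another nuclear RNA, had 112.4 to 501.2 CPM in high-fat females and 678.8 to 797.9 CPM in chow females. The groups did not overlap, as in 1.90% of all genes in this direction, and Neat1 differed by -1.11 log2 units (edgeR adjusted p = 0.0468). Its difference without high-fat females 4 and 5 was -0.64 (adjusted p = 0.0012) in females and -0.43 (adjusted p = 0.0089) in males, and its part in the collagen results was not tested. Where a call named below is lost without these 2 libraries, this is said beside it. The Y-linked gene Kdm5d had no counts in any female library and at least 17.98 CPM in every male library. Cartilage markers, a type II collagen tissue, summed to at most 0.372 CPM in any library.

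Per kilobase of exon, the order at the top was the same in all 4 groups: Col3a1, then Col1a1, then Col1a2. Levels below are in CPM per kilobase of annotated exon, the scale on which genes can be set side by side. That scale has limits here, since collagen genes are cut into many short exons and a read across a junction counts more than once. The 12426 annotated bases of Col1a2 include stretches with almost no counts, as do those of Col3a1. In CPM not divided by length the mean of Col1a2 (242.6) was above that of Col1a1 (154.3), so their order rests on the annotated lengths. Col3a1 averaged 67.65 ± 10.5 CPM per kilobase in high-fat females, 47.24 ± 2.54 in chow females, 48.15 ± 3.82 in high-fat males and 43.68 ± 1.92 in chow males (SD, n = 5, 5, 5 and 4). Col1a1 averaged 29.63 ± 2.73 CPM per kilobase in high-fat females, 21 ± 1.06 in chow females, 21.81 ± 1.604 in high-fat males and 21.14 ± 1.57 in chow males. Col1a2 averaged 24.2 ± 1.45 CPM per kilobase in high-fat females, 17.52 ± 0.94 in chow females, 18.25 ± 0.835 in high-fat males and 17.76 ± 1.34 in chow males. Col3a1 was above Col1a1, and Col1a1 above Col1a2, within every library, and only in high-fat females did the ranges of Col1a1 and Col1a2 overlap.

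The order of the minor chains differed between the sexes. In both male groups Col5a3 came next, at 11.59 ± 0.50 CPM per kilobase on high fat and 11.35 ± 0.604 on chow, followed by Col5a1, Col5a2 and Col14a1, and neighbours in this order did not overlap in any male group. In females Col5a1 stood above Col5a3 on average, with 10.53 ± 0.953 against 6.897 ± 1.82 CPM per kilobase on high fat and 8.549 ± 0.404 against 8.414 ± 1.23 on chow. Their ranges overlapped on both diets, and on chow Col5a1 was above Col5a3 in 3 of 5 libraries. In high-fat females Col5a3, Col5a2 (6.721 ± 1.08) and Col14a1 (6.66 ± 0.40) could not be ordered beyond their spread, and in chow females the same held for Col14a1 (5.512 ± 0.99) and Col5a2 (5.445 ± 0.159). Col12a1, a chain best known from tendon and other dense connective tissue, was lowest in every group, between 0.0771 and 0.101 CPM per kilobase. Its 0.6791 to 2.173 CPM lay above the 0.0539 CPM that 3 counts amount to in the smallest library.

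**Figure D1:**
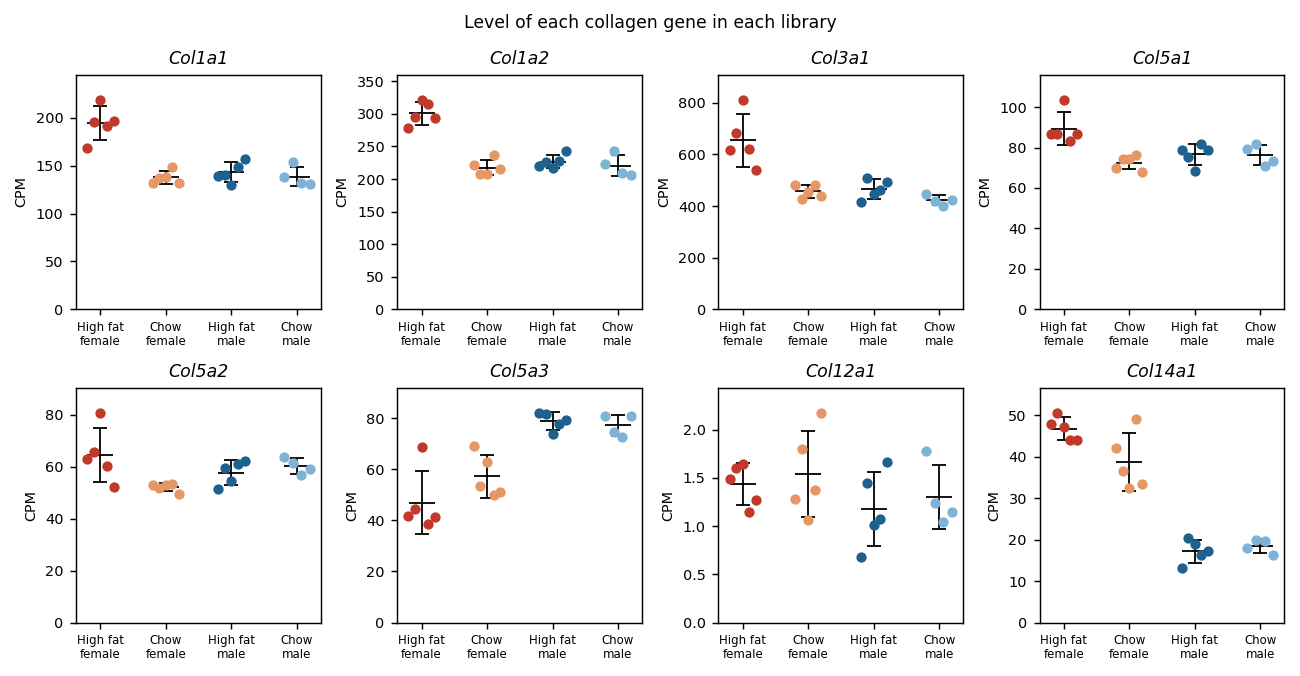
CPM of each collagen gene (y axis, from 0) in every library, by group (x axis), with the group mean and SD as bars (n = 5, 5, 5 and 4). High-fat females sit above the other groups for Col1a1, Col1a2 and Col3a1, while Col14a1 separates the sexes and Col5a3 is highest in males.

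The first comparison was high-fat against chow in females. The chains of the main fibrils rose: Col1a1 1.41-fold, Col1a2 1.38-fold and Col3a1 1.43-fold, and with them Col5a1, a chain of the fibril core, 1.23-fold. Col5a2, Col5a3, Col12a1 and Col14a1 did not pass the test, which was the quasi-likelihood F-test of edgeR, adjusted by the Benjamini-Hochberg method over 18019 genes, with calls at an adjusted p under 0.05. Thus 4 of 8 genes were called higher and 0 lower, where 1.68% of all genes tested were called higher, 0.866% lower and 2.54% either way. The median change of the 8 genes was 0.30 log2 units and that of all genes tested -0.018. In bulk tissue, fewer cells of a type and less RNA per cell cannot be told apart, and this holds for every level given here.

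Col1a1, the alpha1 chain of type I collagen, had 168.7, 196.2, 219.1, 191.4 and 196.9 CPM in high-fat females 1 to 5, against 132.1, 137.2, 138.4, 149.1 and 132.3 CPM in chow females 1 to 5. The groups did not overlap, as in 2.64% of all genes in this direction, and high-fat female 1 was the nearest to chow. The log2 change was 0.50 ± 0.068 (SE; edgeR adjusted p = 0.00108).

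Col1a2, the alpha2 chain that joins alpha1 chains in the type I helix, had 277.8, 294.9, 321.9, 315.9 and 293.1 CPM in high-fat females, against 221, 208.1, 208.4, 236.3 and 214.7 CPM in chow females. Again every high-fat library was above every chow library, and the spread within each group was small beside the gap. The log2 change was 0.47 ± 0.055 (edgeR adjusted p = 0.000444). Counted by its single largest exonic piece in place of all pieces, it changed by 0.38 ± 0.099 and was no longer called (adjusted p = 0.0634).

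Col3a1, the only chain of type III collagen and the most abundant of the 8, had 617.6, 681.3, 812.2, 622.1 and 539.4 CPM in high-fat females, against 483.1, 428.6, 455.7, 480.3 and 437.5 CPM in chow females. High-fat female 3 was the highest library and high-fat female 5 the lowest of its group, still above all chow females. The log2 change was 0.52 ± 0.084 (edgeR adjusted p = 0.0043), and 0.62 ± 0.073 without high-fat females 4 and 5 (adjusted p = 0.000116).

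Among the type V chains, Col5a1 had 86.48, 86.94, 103.7, 83.36 and 86.68 CPM in high-fat females, against 70.04, 74.55, 74.31, 76.08 and 67.94 CPM in chow females. The groups did not overlap, but 4 of the 5 high-fat libraries lay close together and high-fat female 3 stood above them. The log2 change was 0.30 ± 0.064 (edgeR adjusted p = 0.0189), and it was 0.23 ± 0.067 and not called after adjustment of each library for GC content (adjusted p = 0.0931).

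Col5a2, the partner of Col5a1 in the common type V helix, had 63.13, 65.55, 80.76, 60.44 and 52.41 CPM in high-fat females, against 52.92, 51.98, 53.05, 53.49 and 49.68 CPM in chow females. High-fat females 1 to 4 were above all chow females, and high-fat female 5 was inside their range. Its log2 difference was 0.30 ± 0.085 (edgeR adjusted p = 0.0647). Without high-fat females 4 and 5 it was 0.41 ± 0.072 and called (adjusted p = 0.00278), in a fit that called 5.15% of all genes.

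Col5a3, a type V chain of more restricted tissue distribution, had 41.75, 44.47, 68.75, 38.63 and 41.19 CPM in high-fat females, against 69.07, 53.6, 62.92, 49.91 and 50.96 CPM in chow females. Here 4 high-fat libraries were below all chow libraries and high-fat female 3 was at the upper end of the chow range. The log2 difference was -0.29 ± 0.13 (edgeR adjusted p = 0.235), and -0.47 without high-fat female 3, which alone turned it into a call (adjusted p = 0.0118).

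For the fibril-associated chains, Col14a1 had 47.96, 50.51, 47.17, 44.02 and 43.88 CPM in high-fat females, against 42.05, 36.47, 32.36, 49.07 and 33.33 CPM in chow females. Chow female 4 was as high as the high-fat libraries, and the difference of 0.27 ± 0.12 did not pass the test (edgeR adjusted p = 0.217). Col12a1 ranged from 1.144 to 1.649 CPM in high-fat females and from 1.063 to 2.173 CPM in chow females, with a difference of -0.10 (95% interval -0.59 to 0.38). These few counts leave a wide interval.

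Col1a1 was called in all 28 fits run, those that leave out 1 library included, with adjusted p between 1.71e-08 and 0.0362. In a fit of the females alone, which has fewer libraries to estimate the spread, 2 genes (Col1a1 and Col1a2) were called and Col3a1 and Col5a1 had adjusted p = 0.0833 and 0.142, with 0.0758% of all genes called higher.

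**Figure D2:**
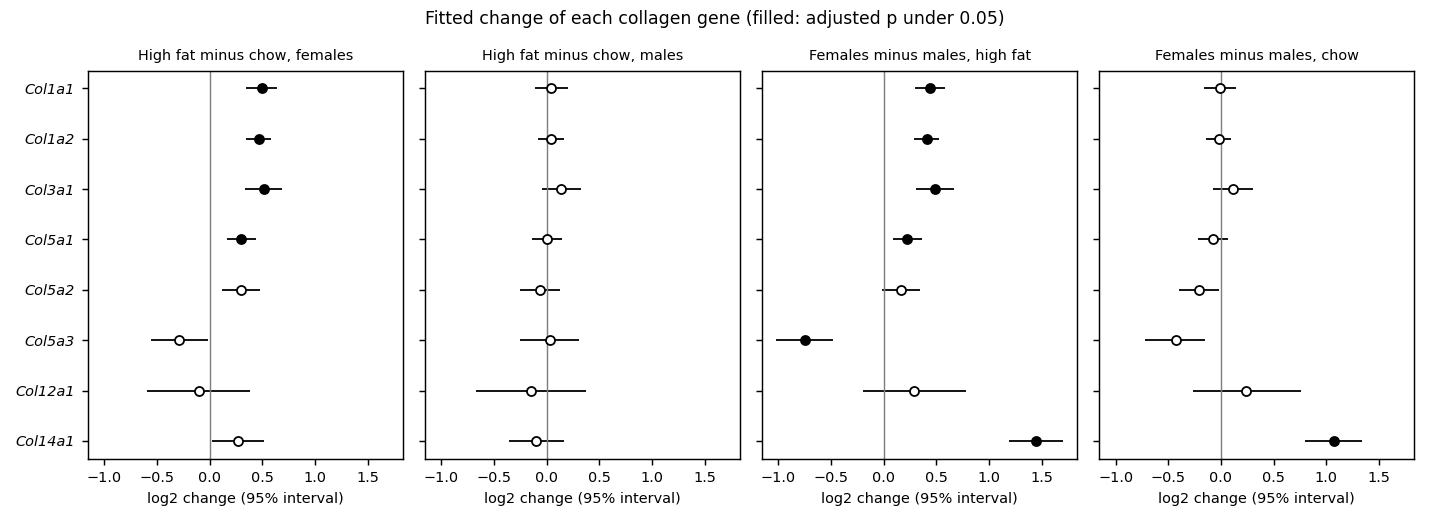
Fitted log2 change of each gene (x axis) with its 95% interval, by gene (y axis), for high-fat minus chow in females and in males and for females minus males on high fat and on chow; filled points had an adjusted p under 0.05. The male diet panel is centred near 0, and Col14a1 lies farthest to the right in both sex panels, at 1.44 and 1.07.

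The second comparison was high-fat against chow in males, and no collagen gene passed the test: 0 of 8 were called, where 0.766% of all genes were called by edgeR, 0.400% higher and 0.366% lower. At an unadjusted p under 0.05 also 0 of the 8 were reached, against 8.52% of all genes. The median change was 0.017 log2 units over the 8 genes and 0.0024 over all genes. DESeq2 on the same counts called 0 of the 8 too.

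Col1a1 had 139.8, 140.5, 129.4, 148.8 and 157.4 CPM in high-fat males 1 to 5, against 138.1, 153.5, 132.5 and 130.8 CPM in chow males 1, 2, 3 and 5. The ranges overlapped, and the log2 difference was 0.045 (95% interval -0.11 to 0.20). Col1a2 had 220, 226.2, 216.6, 227.6 and 243.5 CPM in high-fat males, against 223.2, 243.1, 209.5 and 206.9 CPM in chow males. Its difference was 0.039 (95% interval -0.084 to 0.16), and its test of a diet difference between the sexes is given below.

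Col3a1 had 416.6, 510, 447.2, 462.3 and 493.1 CPM in high-fat males, against 446.6, 420.3, 401.3 and 422.1 CPM in chow males. High-fat males 2 to 5 were above all chow males and high-fat male 1 was among them. The difference of 0.14 ± 0.089 had the smallest adjusted p of the 8 (edgeR, 0.782). The type V chains averaged 76.63 ± 5.06 CPM in high-fat males and 76.4 ± 5.02 CPM in chow males for Col5a1, 57.76 ± 4.69 and 60.33 ± 3.07 for Col5a2, and 78.9 ± 3.401 and 77.32 ± 4.11 for Col5a3 (SD, n = 5 and 4). Each of these pairs overlapped. Col14a1 averaged 17.18 ± 2.80 CPM in high-fat males and 18.41 ± 1.70 CPM in chow males, and Col12a1 1.174 ± 0.384 and 1.303 ± 0.33.

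**Figure D3:**
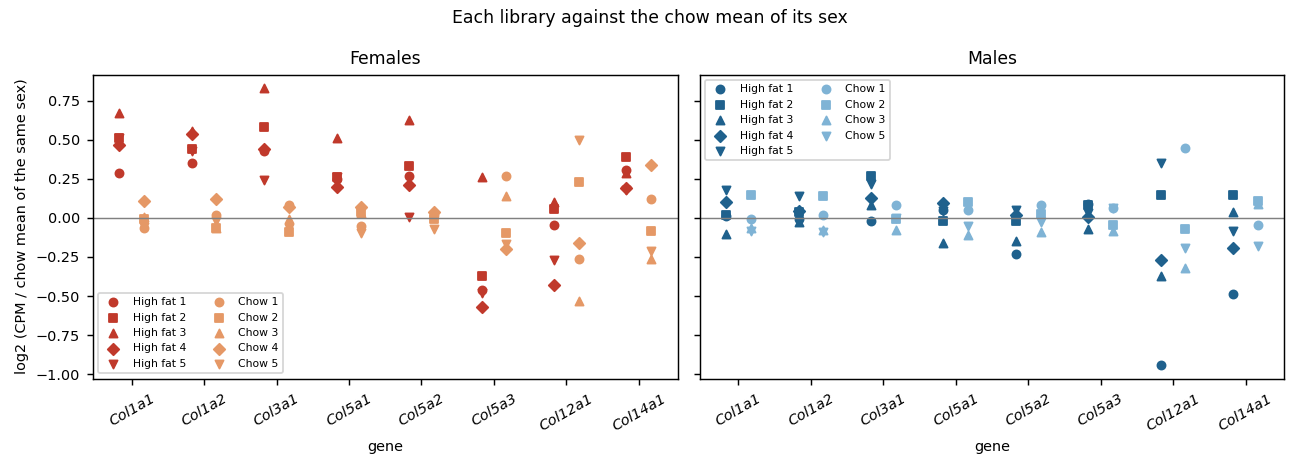
Each library as log2 of its CPM over the chow mean of its own sex (y axis), by gene (x axis), females in the left panel and males in the right, with marker shapes for replicate numbers. In females the high-fat points of Col1a1, Col1a2, Col3a1 and Col5a1 are all above the chow points and high-fat female 3 is often highest, while in males the colours mix.

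Whether the diet difference itself differed between the sexes was tested by an interaction term. None of the 8 genes was called by edgeR, and none of all 18019 genes was (0%), although 1835 genes (10.2%) had an unadjusted p under 0.05. Of the 8 genes, 6 had an unadjusted p under 0.05: Col1a2 (0.43 ± 0.081 log2 units more in females, adjusted p = 0.111), Col1a1 (0.45 ± 0.098, 0.156), Col5a1 (0.30, 0.32), Col3a1 (0.38, 0.33), Col5a2 (0.37, 0.361) and Col14a1 (0.37, 0.479). Col5a3 had a difference of -0.32 (95% interval -0.71 to 0.075) and Col12a1 one of 0.047 (-0.66 to 0.75). DESeq2 called Col1a1 (adjusted p = 0.0203) and Col1a2 (0.0032) among 58 genes, or 0.322% of those tested. A call in females and none in males is therefore, in the edgeR fit, not a shown difference between the sexes.

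The third comparison set females against males. On the high-fat diet 6 of the 8 genes were called by edgeR, 5 higher in females and 1 lower, where 6.40% of all genes were called higher, 3.95% lower and 10.3% either way. On chow 1 of 8 was called, Col14a1, where 1.73% of all genes were called higher, 1.49% lower and 3.22% either way. The median difference of the 8 was 0.35 log2 units on high fat and -0.015 on chow, against 0.012 and 0.01 over all genes. The high-fat comparison uses the same high-fat female libraries as the diet comparison in females, so the 2 are not independent.

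Col14a1, a type XIV chain that binds the fibril surface, showed the largest sex difference of the 8. It had 43.88 to 50.51 CPM in high-fat females, against 13.07, 20.41, 18.88, 16.17 and 17.36 CPM in high-fat males. On chow it had 32.36 to 49.07 CPM in females, against 17.85, 19.92, 19.61 and 16.25 CPM in males. No female library overlapped a male library on either diet. Among all genes 4.79% had every high-fat female above every high-fat male, and 5.66% every chow female above every chow male. The difference was 1.44 ± 0.12 log2 units on high fat (2.72-fold, edgeR adjusted p = 9.05e-07) and 1.07 ± 0.13 on chow (2.10-fold, adjusted p = 7.48e-05), and it was called in all 28 fits of both comparisons. All 50 of its exonic pieces with a mean of at least 20 counts were higher in females on both diets, by 1.08 to 1.84 log2 units on high fat and 0.55 to 1.43 on chow.

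Col5a3 went the other way. It had 38.63 to 68.75 CPM in high-fat females, against 82.09, 81.73, 73.73, 77.77 and 79.16 CPM in high-fat males, and 49.91 to 69.07 CPM in chow females, against 80.73, 74.76, 72.87 and 80.89 CPM in chow males. Females and males did not overlap on either diet. On high fat the difference was -0.75 ± 0.13 log2 units, lower in females (edgeR adjusted p = 0.00164). On chow the difference was -0.43 ± 0.13 and not called (edgeR adjusted p = 0.0934), but it was called by DESeq2 (0.0437), without high-fat females 4 and 5 (0.0176) and in a fit of the chow groups alone (0.00904). Those fits called 4.97%, 10.4% and 8.81% of all genes for sex on chow, against 3.22% in the model of all 19 libraries. None of the 67 pieces of Col5a3 with at least 20 counts was higher in females on either diet. Among all genes, 5.23% had every high-fat female below every high-fat male, and 6.09% every chow female below every chow male.

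Col1a1, Col1a2, Col3a1 and Col5a1 were called higher in females on high fat and were not called on chow, and the change between these sex differences is what the interaction term above tested. Col1a1 differed by 0.44 ± 0.068 log2 units on high fat (edgeR adjusted p = 0.00062) and by -0.0094 on chow (95% interval -0.16 to 0.14). Col1a2 differed by 0.41 ± 0.055 on high fat (adjusted p = 0.000246) and by -0.02 on chow (-0.14 to 0.10). By its largest piece alone, Col1a2 differed by 0.23 on high fat and was not called (adjusted p = 0.139). Col3a1 differed by 0.49 ± 0.084 on high fat (adjusted p = 0.00164) and by 0.11 on chow (-0.074 to 0.30). In all 3 genes every high-fat female was above every high-fat male, while chow females and chow males overlapped.

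Col5a1 differed by 0.22 ± 0.064 on high fat (edgeR adjusted p = 0.034), with 83.36 CPM in the lowest high-fat female and 81.62 CPM in the highest high-fat male. That call was the least firm of the 6: with GC adjustment the difference was 0.091 (adjusted p = 0.389), and it was lost without high-fat female 3 or without high-fat male 1, 2, 3 or 5, at 0.16 log2 units or more. It was also lost with no filter, the largest piece, a replicate block or the high-fat groups alone, with adjusted p from 0.0585 to 0.132. On chow Col5a1 differed by -0.074 (95% interval -0.22 to 0.069). Col5a2 differed by 0.16 on high fat (adjusted p = 0.215) and by -0.21 on chow (adjusted p = 0.245), where all 5 chow females, at 49.68 to 53.49 CPM, were below all 4 chow males, at 56.67 to 63.86 CPM. Without high-fat females 4 and 5 the differences of Col5a2 were 0.27 on high fat (edgeR adjusted p = 0.0226) and -0.21 on chow (0.0498), both called. That fit called 10.4% of all genes between the sexes on each diet. In a fit of the chow groups alone, which called 8.81% of all genes, Col5a2 was also called on chow (-0.21, edgeR adjusted p = 0.0132). Col12a1 was not called on either diet (0.29 on high fat and 0.24 on chow).

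The sexes also differed in genes of the circadian clock. Dbp, whose level follows the time of day, averaged 110.8 ± 24.6 CPM in high-fat females, 91.79 ± 13.8 in chow females, 15.18 ± 3.79 in high-fat males and 8.952 ± 1.499 in chow males. Arntl, which runs in opposite phase, averaged 7.559 ± 1.66, 11.82 ± 2.37, 31.07 ± 4.05 and 37.59 ± 2.19 CPM in the same groups. Arntl was also lower in high-fat females than in chow females (-0.65 log2 units, edgeR adjusted p = 0.0235, and -0.54, adjusted p = 0.0482, without high-fat females 4 and 5). The part of these differences in the sex and diet differences of the collagen genes was not tested.

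The balance between chains that share a helix or a fibril was compared by ratios of CPM per kilobase within a library. Col1a1 over Col1a2 averaged 1.223 ± 0.0691 in high-fat females, 1.20 ± 0.0537 in chow females, 1.194 ± 0.0424 in high-fat males and 1.19 ± 0.0128 in chow males. Col3a1 over Col1a1 averaged 2.283 ± 0.268 in high-fat females, 2.252 ± 0.138 in chow females, 2.212 ± 0.184 in high-fat males and 2.074 ± 0.158 in chow males. Col5a1 over Col5a2 averaged 1.584 ± 0.164 in high-fat females, 1.57 ± 0.0506 in chow females, 1.505 ± 0.136 in high-fat males and 1.43 ± 0.0486 in chow males. Between the groups compared, these ratios differed by at most 0.13 log2 units. None of 12 two-sided exact permutation tests passed after adjustment, and the smallest p these designs allow is 0.00794 for 5 against 5 libraries and 0.0159 for 5 against 4. The smallest p obtained was 0.0238, for Col5a1 over Col5a2 in chow females against chow males (0.13 log2 units, adjusted p = 0.286). After adjustment over 12 tests a single ratio could not have passed even at the smallest p allowed, so the missing calls do not show that the ratios were alike.

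**Figure D4:**
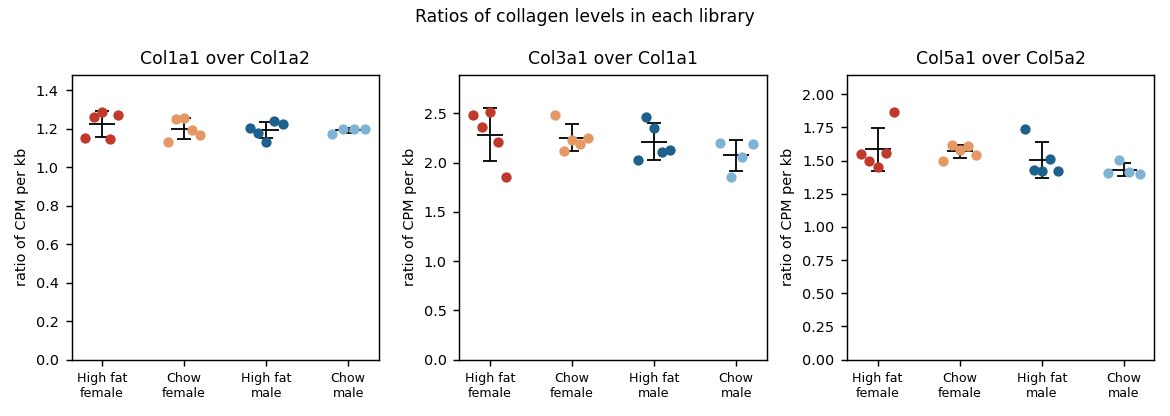
Ratio of CPM per kilobase (y axis, from 0) in each library for 3 pairs of chains, by group (x axis), with mean and SD as bars (n = 5, 5, 5 and 4). The groups overlap in every panel, and single libraries such as high-fat female 5 (1.868) and high-fat male 1 (1.738) stand above the rest for Col5a1 over Col5a2.

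The rise in high-fat females was spread along each transcript. Of the exonic pieces with a mean of at least 20 counts, 52 of 52 of Col1a1 were higher in high-fat females, as were 56 of 57 of Col1a2, 61 of 61 of Col3a1 and 66 of 68 of Col5a1. The same held for 55 of 55 pieces of Col5a2 and 50 of 50 of Col14a1, neither of which was called as a gene, and for 1 of 67 pieces of Col5a3. Pieces of a gene share its reads and are not independent. With the exonic length cut into 3 equal parts, the share of counts in the 3′ part, a measure that RNA breakage moves, was 52.67% and 54.03% for Col3a1 in high-fat females 4 and 5 and 51.53% to 54.93% in the other libraries. For Col1a1 it was 13.55% and 14.51% in these libraries, against 13.48% to 16.39% elsewhere, and for Col14a1 they also lay inside the range of the others. In the other 5 genes at least 1 of them lay outside it: the pair had 12.91% and 14% for Col5a1, against 11.36% to 13.32%, and 26.98% and 28.79% for Col5a3, against 28.18% to 31.76%. The pair ran from 40.78% to 43.23% for Col1a2, against 41.27% to 45.57%, from 30.45% to 31.93% for Col5a2, against 25.65% to 31.85%, and from 72.62% to 78.31% for Col12a1, against 45% to 78.16%. The part of these shares in the results was not tested.

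**Figure D5:**
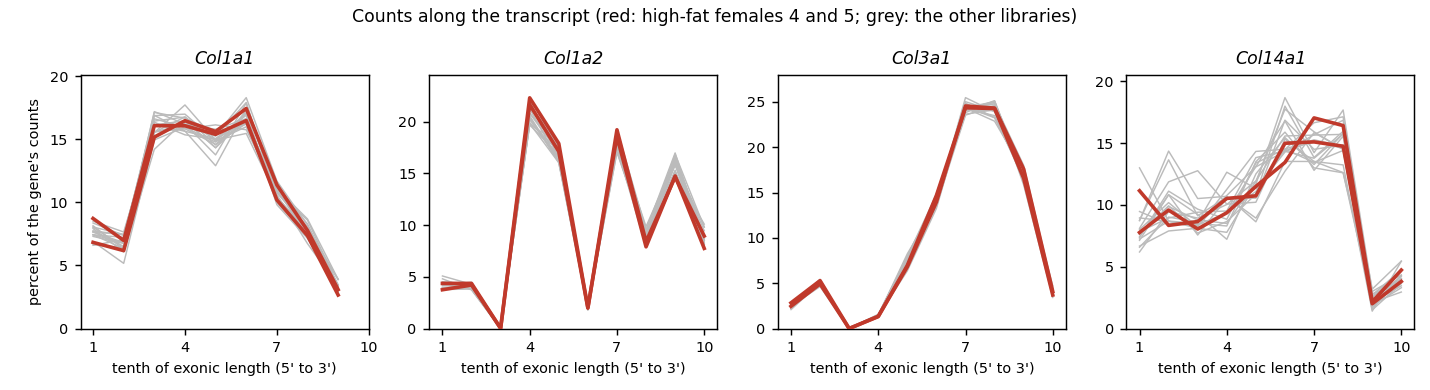
Percent of a gene's counts (y axis) in each of 10 equal parts of its exonic length from 5′ to 3′ (x axis), 1 line per library, for 4 genes; exonic pieces are placed by their midpoint, so a long piece falls in 1 part and the last part of Col1a1 holds no piece. High-fat females 4 and 5 are drawn in red over the other 17 libraries in grey.

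Libraries also differed from their group means in ways the genes shared. As a description over 19 libraries, deviations of log2 CPM from the group means of Col3a1 and Col5a2, neighbours on chromosome 1, had r = 0.93, those of Col1a1 and Col1a2 r = 0.82 and those of Col1a1 and Col5a1 r = 0.78. Pairs with Col14a1 ran from r = -0.07 (Col5a3) to r = 0.43 (Col3a1). These libraries share depth, preparation and GC bias, and without high-fat females 4 and 5 the 3 high values were 0.89, 0.87 and 0.83.

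The 5 other genes with levels most like the mean of the 8, by Pearson r of log2 CPM over 17 libraries without high-fat females 4 and 5, were Col6a1 (r = 0.926), Mmp2 (0.912), Col6a2 (0.898), Fstl1 (0.894) and Cd34 (0.893). Over all 19 libraries r was 0.915, 0.855, 0.858, 0.892 and 0.875. Leaving out also the 2 libraries farthest from the median lowered r to between 0.703 and 0.779, so part of the likeness rests on those libraries. Col6a1 and Col6a2 encode chains of type VI collagen, which forms beaded filaments rather than fibrils.

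Other collagens of the same classes were set beside the 8. Of 5 other fibrillar chains 3 could be tested, and 0 were called in any of the 5 comparisons in the model of all 19 libraries. Together they summed to 12.55 ± 3.64 CPM in high-fat females and 12.76 ± 0.804 in chow females, mostly Col27a1 and Col11a2. Col2a1 and Col11a1, the cartilage chains, averaged between 0.0274 and 0.1325 CPM per group, near the 3-count floor. Of 8 other fibril-associated chains 5 were tested and 0 called in that model. The most abundant, Col16a1, averaged 22.1 ± 2.004 CPM in high-fat females, 18.9 ± 1.47 in chow females, 18.57 ± 2.19 in high-fat males and 17.73 ± 0.813 in chow males. Without high-fat females 4 and 5, Col27a1 (0.42 log2 units, edgeR adjusted p = 0.0373) and Col16a1 (0.30, adjusted p = 0.0353) were called higher in high-fat females than in high-fat males, as were 4.81% of all genes in that fit. The median of the 4 other fibrillar chains tested there was 0.52 in that comparison, 0.25 for diet in females and 0.57 for the interaction.

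Of 19 helpers of procollagen folding, 2 were called higher in high-fat females than in chow females and 0 lower. Over all genes 1.68% were called higher there and 0.866% lower. Serpinh1, the collagen chaperone HSP47, averaged 200.5 ± 9.58 CPM in high-fat females and 155.3 ± 8.26 CPM in chow females (0.37 log2 units, edgeR adjusted p = 0.0134). Its ranges of 190.9 to 215.1 and 142.7 to 163.6 did not overlap, as in 2.64% of all genes in this direction. Fkbp10, a prolyl isomerase of the procollagen pathway, averaged 35.68 ± 4.66 and 23.38 ± 4.14 CPM (0.61, adjusted p = 0.00609). The median of the list was 0.094. In males Fkbp10 averaged 26.09 ± 2.28 CPM on high fat and 19.27 ± 1.152 CPM on chow. Its ranges of 23.53 to 28.66 and 18.46 to 20.96 did not overlap, as in 3.61% of all genes in this direction. That difference of 0.44 was not called (adjusted p = 0.098), but it was called without high-fat females 4 and 5 (adjusted p = 0.0184), as was P3h4, a subunit of a lysyl hydroxylase complex (0.35, adjusted p = 0.0137). That fit called 2.63% of all genes for diet in males, against 0.766% in the model of all 19 libraries. Between chow females and chow males 4 of the 19 were lower in females and 0 higher, where 1.49% of all genes were called lower and 1.73% higher. They were Serpinh1 (-0.38, edgeR adjusted p = 0.00983), the prolyl 4-hydroxylase subunits P4ha1 (-0.43) and P4ha2 (-0.30), and Creb3l1 (-0.45), a transcription factor that activates Col1a1 in bone. Crtap was also called there without high-fat females 4 and 5, higher in females (0.27, adjusted p = 0.0141), in a fit that called 4.74% of all genes higher. On high fat 5 were higher in females and 1 lower, where 6.40% of all genes were called higher and 3.95% lower, led by Tmem38b (-0.34), a cation channel of the endoplasmic reticulum and the 1 that was lower, and then P3h3 (0.31), Fkbp10 (0.45) and Crtap (0.30), a subunit of the prolyl 3-hydroxylase complex. Of these, only P3h3 (0.28, adjusted p = 0.0248) and Tmem38b (-0.44, adjusted p = 0.000438) were called without high-fat females 4 and 5.

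Enzymes of propeptide removal and cross-linking held 4 more genes higher in high-fat females than in chow females, where 1.68% of all genes were called higher. Adamts2, which cuts the amino-terminal propeptide, averaged 31.79 ± 2.24 CPM in high-fat females and 24.05 ± 1.05 in chow females (0.40 log2 units, edgeR adjusted p = 0.0043). Pcolce, an enhancer of carboxy-terminal propeptide removal, averaged 85.99 ± 8.40 and 69.6 ± 3.34 CPM (0.31, adjusted p = 0.0299), but was not called without high-fat females 4 and 5. That made 2 of 8 in this list, and in the cross-linking list 2 of 5: Loxl1 (34.81 ± 3.70 and 25.28 ± 1.19 CPM, 0.46, adjusted p = 0.00108) and Loxl2 (12.13 ± 1.22 and 9.001 ± 0.767 CPM, 0.43, adjusted p = 0.0312), both lysyl oxidase-like enzymes. Lox itself was scarce, and lower in high-fat females (1.102 ± 0.467 CPM) than in high-fat males (2.705 ± 0.564 CPM; -1.30, adjusted p = 0.00422). Between the sexes on high fat, 4 of 8 genes of propeptide removal were higher in females, among them Pcolce2 (0.56, edgeR adjusted p = 0.000447), and 0 lower. Of the cross-linking genes 2 were higher (Loxl1 and Loxl3) and 1 lower (Lox). Over all genes 6.40% were called higher in that comparison and 3.95% lower. The call of Loxl1 in that comparison was lost without high-fat females 4 and 5 (0.17, adjusted p = 0.0539).

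Of 11 partners that bind the fibril, 2 were higher in high-fat females than in chow females and 0 lower, where 1.68% of all genes were called higher and 0.866% lower. Sparc, a collagen-binding matrix protein, averaged 452.5 ± 43.7 CPM in high-fat females and 332.7 ± 26.8 in chow females (0.44 log2 units, edgeR adjusted p = 0.00914). Tnxb, tenascin X, averaged 137.2 ± 11.8 and 107.9 ± 8.44 CPM (0.35, adjusted p = 0.00937). Lum, the proteoglycan lumican, was higher in females on both diets. It averaged 52.75 ± 5.43 CPM in high-fat females against 34.86 ± 1.68 in high-fat males (0.60, adjusted p = 0.00062), and 47.87 ± 6.15 in chow females against 30.19 ± 3.48 in chow males (0.67, adjusted p = 0.000681). Thbs2, thrombospondin 2, was also higher in females on high fat (0.41) and on chow (0.42), but without high-fat females 4 and 5 the difference on high fat was 0.27 and not called (adjusted p = 0.0695). Over all genes 6.40% were called higher in females on high fat and 1.73% on chow.

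Of 11 genes of collagen breakdown, 2 rose in high-fat females and 0 fell. Mmp2, a gelatinase, averaged 81.09 ± 8.70 CPM in high-fat females and 63.75 ± 4.63 in chow females (0.35 log2 units, edgeR adjusted p = 0.0183). Mrc2, an uptake receptor for collagen fragments, averaged 34.82 ± 2.38 and 26.85 ± 1.72 CPM (0.38, adjusted p = 0.0114). Against high-fat males, 4 were higher in high-fat females and 1 lower, led by Ctsk, the collagen-cutting cathepsin K (0.64, edgeR adjusted p = 0.00132). In that comparison 6.40% of all genes were called higher and 3.95% lower. Collagen receptors had 0 of 8 called for diet in females and 2 of 8 higher in females on high fat, Ddr1 (0.38) and Itga11 (0.52), and without high-fat females 4 and 5 Ddr1 was called on chow as well (0.23, adjusted p = 0.0209), in a fit that called 4.74% of all genes higher there. In the TGF-beta pathway, a main inducer of collagen genes, 2 of 15 were higher in high-fat females, Tgfbr2 (0.27, adjusted p = 0.0236) and Ltbp3 (0.19, adjusted p = 0.0482), and 0 without high-fat females 4 and 5. In the model of all 19 libraries 0 genes of these lists were called for diet in males, and 0 for the interaction. With 2.54% of all genes called for diet in females, lists of this size give few calls either way, and nothing is read from a list with 1 or 2.

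Markers of cell types were set beside these counts. Of 10 fibroblast markers that are not collagens, 1 was higher in high-fat females than in chow females (Clec3b, 0.35 log2 units, edgeR adjusted p = 0.0431), where 1.68% of all genes were, and 0 without high-fat females 4 and 5. Their summed level was 2107 to 2879 CPM in high-fat females, 1984 to 2312 in chow females, 1976 to 2091 in high-fat males and 1889 to 2047 in chow males, and none of the 10 was at 0 in any group. Most of this sum was Gsn, with 1777 ± 361.7 CPM in high-fat females and 1466 ± 112.5 in chow females. Dcn averaged 356.3 and 359.7 CPM in these groups and Ddr2 20.13 and 22.94, so the sum does not describe each marker. The median change of the 10 in females was 0.15, against 0.30 for the collagen genes. Against high-fat males 6 of the 10 were higher in high-fat females, led by Clec3b (0.68), Lum (0.60), Dpt (0.31) and Tcf21 (0.45), where 6.40% of all genes were called higher. On chow 2 of 10 were higher, Lum and Tcf21, where 1.73% of all genes were. On high fat 5 of the 10 were higher without high-fat females 4 and 5, with all 4 of those named for high fat among them. That fit called 4.81% of all genes higher in this comparison. Markers of activated fibroblasts had 0 of 6 called in any comparison in the model of all 19 libraries. Without high-fat females 4 and 5, Acta2 was called higher in high-fat males than in chow males (0.58, adjusted p = 0.0393) and Ltbp2 lower in chow females than in chow males (-0.74, adjusted p = 0.0211). Postn, periostin, averaged 42.29 ± 21.2 CPM in high-fat females (12.95 to 63.8) and 41.34 ± 5.77 in chow females (34.9 to 49.79). The median change of the 6 activated markers in females was 0.16, and 0.36 without high-fat females 4 and 5. In the same 2 fits it was 0.15 and 0.14 for the 10 other fibroblast markers, and 0.30 and 0.38 for the collagen genes.

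In females, 3 of 7 endothelial markers were also higher on high fat (Cdh5, 0.29, Tie1, 0.28, and Pecam1, 0.20), and 1 of 8 cardiomyocyte markers was lower (Tnnt2, -0.31, edgeR adjusted p = 0.0141). Of all genes 1.68% were called higher there and 0.866% lower. Without high-fat females 4 and 5, 4 of 8 cardiomyocyte markers were lower, in a fit that called 2.69% of all genes lower and 2.47% higher. Summed cardiomyocyte markers averaged 82200 ± 3975 CPM in high-fat females and 90600 ± 3210 in chow females, and 81690 ± 2663 in high-fat males and 88960 ± 3185 in chow males. Of mural, macrophage, mesothelial, adipocyte, lymphocyte, Schwann and red cell markers 0 were called for diet in females by edgeR, and 4 of 5 red cell markers were higher without high-fat females 4 and 5. Against high-fat males, 3 of 7 mural markers (Cspg4, Pdgfrb, Kcnj8) and 1 of 7 macrophage markers (Cd68) were higher in high-fat females. Flt1, endothelial, and Kcna1, a Schwann marker, were lower. Of all genes 6.40% were called higher there and 3.95% lower. Without high-fat females 4 and 5, Kcnj8, Flt1 and Kcna1 were not called, and the endothelial Egfl7 was called higher. Whether the number of fibroblasts or other cells had a part in the collagen levels was not tested.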

How the data were processed

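Heart RNA of 20 libraries was deposited as whole counts, 1 file per library. GRCm39, DESeq2 1.32.0 and Salmon 1.5.1 are named in the submitters' processing notes, with no role, while the files hold counts per piece of exon (425461 pieces in 19 files) in coordinates of GRCm38. How reads were aligned, and whether by strand, is not given in the sources used here. The file of chow male 4 holds counts per gene and was left out of the fit, so chow males number 4. Pieces that name several genes were used where exons of only 1 of them cover the piece in GENCODE vM21; 6035 pieces with 1.32% to 1.43% of counts were not used. Totals overstate reads, since a read counts in each piece it spans, so the error of a value is taken from replicate libraries.

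Counts were summed per gene, filtered with filterByExpr, scaled by TMM and fitted in edgeR 4.0.16 (R 4.3.3), with 1 quasi-likelihood model over the 4 groups, 15 residual degrees of freedom and Benjamini-Hochberg adjustment over 18019 genes. CPM are counts per 1000000 on TMM-scaled library sizes, computed here from the deposited counts. Ratios were tested by exact permutation over libraries. The test was checked on simulated counts. Alternatives were DESeq2 1.42.0, its size factors, no filter, the largest piece of each gene, a replicate block, GC-adjusted offsets, only the groups compared, the fit without high-fat females 4 and 5, and each library left out. Named genes are the 8 collagen genes and, per list and comparison, up to 4 called genes with the smallest p; levels of Postn, Col16a1, Col27a1, Col11a2, Col2a1, Col11a1 and the clock genes were added after values were seen. The genes and lists were chosen with earlier results of these data known.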

Additional observations from a re-analysis of the deposited data

Results flagged for a closer look

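In 44 sets of 4 or 5 libraries (each gene and ratio in each group), the highest or lowest library was compared with the gap that Dixon's test allows, and 6 stood apart; chance alone gives about 1 in 20. High-fat female 3 had 103.7 CPM of Col5a1, where the next library of its group had 86.94, and 68.75 CPM of Col5a3, where the next had 44.47. The same library was also the highest of its group for Col1a1, Col1a2, Col3a1, Col5a2 and Col12a1. Its GC slope of 0.12 was below the 0.60 and 0.88 of high-fat females 4 and 5, but the highest of the other libraries. The part of GC content in its levels was not tested. For Col5a1 over Col5a2, high-fat female 5 had a ratio of 1.868 (next 1.558), high-fat male 1 one of 1.738 (next 1.511) and chow male 2 one of 1.503 (next 1.414). For Col1a1 over Col1a2, chow male 1 had 1.171, just below 1.196 to 1.198 in the other 3 chow males.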

How the results depend on the processing

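The counts of collagen genes called stayed within 1.5 times for diet in males under every alternative run. For diet in females the count was 2 in place of 4 with only the groups compared. It was 3 with the largest piece and with GC adjustment, and 5 with DESeq2 and without high-fat females 4 and 5. For the interaction it was 2 in place of 0 with DESeq2. For sex on chow it was 2 with DESeq2, 2 with the largest piece, 3 without high-fat females 4 and 5 and 3 with only the groups compared, in place of 1, and 1 to 2 with each library left out (2 without high-fat female 3). For sex on high fat, 5 higher and 1 lower became 3 and 1 with the largest piece and 6 and 1 without high-fat females 4 and 5. Over all genes, calls for diet in females numbered 458 in the model of all groups, 995 with DESeq2, 940 without high-fat females 4 and 5 and 21 with only the groups compared. For diet in males they were 138, 256, 480 and 571, for sex on chow 580, 895, 1906 and 1529, and for sex on high fat 1864, 2445, 1898 and 549.

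The differences that changed sign were all uncalled, and the cause was not tested. With the largest piece, Col12a1 for diet in females was 0.18, Col5a3 and Col14a1 for diet in males -0.0043 and 0.041, and Col1a1 and Col1a2 for sex on chow 0.08 and 0.13. Log2 ratios reversed there were Col1a1 over Col1a2 for diet in males (-0.24) and sex on chow (-0.034), Col3a1 over Col1a1 for sex on high fat (-0.089) and Col5a1 over Col5a2 for sex on chow (-0.038). Without high-fat females 4 and 5, Col12a1 for diet in females was 0.033, and Col5a1 over Col5a2 was -0.067 for diet in females and -0.0018 for sex on high fat. With each library left out, Col12a1 spanned -0.14 to 0.20 for the interaction, -0.21 to 0.053 for diet in females and -0.31 to 0.038 for diet in males, Col5a1 -0.026 to 0.043 for diet in males, and Col1a1 -0.04 to 0.043 and Col1a2 -0.053 to 0.03 for sex on chow. Col3a1 over Col1a1 spanned -0.024 to 0.086 and Col5a1 over Col5a2 -0.053 to 0.039 for diet in females, and Col1a1 over Col1a2 -0.0088 to 0.024 for diet in males and -0.0068 to 0.031 for sex on chow.

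Same-numbered libraries did not deviate together (r -0.0604 to 0.149 over 18 pairs). The labels state no pairing, and such values cannot exclude one. With the replicate block the counts were 4, 0, 0, 1 and 5 in place of 4, 0, 0, 1 and 6 for diet in females, diet in males, the interaction, sex on chow and sex on high fat, and Col5a1 for diet in males was -0.0004. Depth limits Col12a1, whose counts are few.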

Other observations

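The library of chow male 4, counted per gene with a total of 31686627, entered no comparison. Its counts per kilobase of annotated exon were 732 for Col3a1, 398 for Col1a1, 337 for Col1a2, 193 for Col5a3, 171 for Col5a1, 118 for Col5a2, 53.3 for Col14a1 and 2.69 for Col12a1. That is the order of the 8 genes found in the other 4 chow males, with Col5a3 above Col5a1 and Col14a1 far below Col5a2.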
